A study of Mus musculus with 2 samples.

Results

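The 9 guidance genes described here are the netrin receptors Neo1 and Unc5b, the netrin Ntn4, the class 3 semaphorins Sema3a, Sema3d, Sema3f and Sema3g, the semaphorin receptor Plxnd1 and the receptor Robo4. They were taken by symbol from the 28692 genes of the count tables and were picked with their levels in these cells already known, so the levels below describe the cells and were not tested. The counts come from CD31+ mesenteric cells of C57BL/6 mice at postnatal day 8, with 1 control library and 1 Flcn iΔEC library (Flcn_KO in the plots), each pooled from 3 mice. All mice are listed as having received 40 µg of 4-hydroxytamoxifen under the skin on 4 occasions between P2 and P6.5. Flcn iΔEC mice carry Cdh5-BAC-CreERT2, which is active in blood and lymphatic endothelium, and Flcn flox/flox. The labels call the other library only "cont" and name no allele for it.

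Axon guidance genes also act in vessels. Netrins are secreted or matrix-bound ligands that signal through the receptors Dcc, neogenin (Neo1) and the Unc5 family, and Ntn4 is a netrin of basement membranes. Class 3 semaphorins are secreted and signal through neuropilins and plexins, with Plxnd1 as the main plexin of endothelium. Slits bind Robo1 and Robo2, whereas Robo4 is an endothelial Robo that has been described as a partner of Unc5b. In vessels these systems act on sprouting, on the permeability of endothelium and on the formation of valves in lymphatics.

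Endothelial cells were taken as cells with at least 2 UMIs (unique molecular identifiers, 1 per counted RNA molecule) of Cdh5, the vascular cadherin. The libraries held 64639756 UMIs in control and 60805779 in the other. This gate kept 566 of 6814 control cells and 892 of 4459 Flcn iΔEC cells, with a median of 16127 and 24415 UMIs per cell. Clustering without the guidance genes and naming from markers gave 10 endothelial types. Venous cells are called VEC-like (72 control and 122 Flcn iΔEC cells). Lymphatic endothelial cells (LECs) fell into LEC collecting-like (21 and 120), LEC capillary-like (44 and 156), a Lyve1-highest group (14 and 22) and LEC sinus-like, the type of lymph node sinuses (18 and 43). High endothelial venule cells are called HEV-like (56 and 76), and the other blood vessel types are large artery-like (53 and 110), a Cxcl12-high group with both arterial and capillary markers (130 and 47) and capillary-like (30 and 17). Cells led by cell cycle genes (54 and 60) or leukocyte genes (74 and 74) are not counted among the types.

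The Prox1-positive venous-like type held 45 cells, all of them in the Flcn iΔEC library (5.04% of its gated cells, 3.70 to 6.69). None of the 566 control cells (0) fell into it, a limit of 0.530% at 3 counts. At a clustering resolution of 1.6 the control share was 1.24% and with marker limits in single cells 0.883%. Prox1, the transcription factor of lymphatic identity, stood at 494 CPM (a gene's counts scaled to 1000000 summed counts of the type), against 154 CPM in VEC-like cells of the same library. The 10 lymphatic markers, Prox1 among them, summed to 1084 CPM, between the 399 CPM of those VEC-like cells and the 8741 CPM of LEC collecting-like cells. Fgl2 (371 against 123 CPM), Flt4 (62.4 against 32.7 CPM), Nts (54.5 against 25.1 CPM), Itga9 (59.5 against 39.1 CPM) and Mmrn1 (17.4 against 6.67 CPM) were above VEC-like cells. Pdpn (0.726 against 0 CPM), Lyve1 (4.36 against 2.22 CPM), Reln (10.9 against 8.90 CPM) and Ccl21a (8.71 against 7.31 CPM) had overlapping intervals in both types. The venous genes were uneven, since Nr2f2 (335 CPM) and Ephb4 (329 CPM) were no lower than in VEC-like cells (320 and 246 CPM), whereas Aplnr was at 5.81 CPM against 225 CPM in VEC-like cells and Vwf at 189 CPM against 1489 CPM. The 8 venous markers summed to 1021 CPM, against 2870 CPM in VEC-like cells of that library. Capillary-like (2685 CPM), large artery-like (1427 CPM), Cxcl12-high (1122 CPM) and Lyve1-highest cells (1107 CPM) were also above it. The other types, such as LEC collecting-like cells (729 CPM), were below. The type was named by high Prox1 with a low sum of Pdpn, Lyve1, Mmrn1 and Reln, so the low levels of these 4 follow from the naming. No venous gene entered this naming, and the word venous in the name does not stand for a full venous profile. Of the 8 venous markers, 1 (Ephb4) passed the marker limits, of 2-fold above the other gated cells and detection in 20% of cells. Of the 5 collecting and valve markers, 3 passed them (Foxc2, Cldn11 and Gja4). Genes of collecting lymphatics and valves were high as well, with Cldn11 at 552 CPM, Gja4 at 442 CPM and Foxc2 at 77.0 CPM. The 5 collecting and valve markers summed to 1251 CPM. Their sum was 1024 CPM in LEC collecting-like, 1186 CPM in large artery-like and 357 CPM in VEC-like cells of that library. Hbb-bs, a hemoglobin gene, had 8105 counts in this type, of which 8072 came from 1 cell, and without that cell it stood at 24.6 CPM in the other 44 cells.

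Each condition had 1 library, so no test between conditions was possible, and every 95% interval below covers counting error only. Cells of a library are not replicates. Xist had 9 counts in control and 63462 in Flcn iΔEC cells, and Y-linked genes 15535 and 17, so sex and genotype cannot be told apart. Flcn itself was counted at 7.86 CPM (4.06 to 13.7) in VEC-like cells of the control and at 11.8 CPM (8.28 to 16.2) in those of the Flcn iΔEC library. A 3′ count does not depend on an inner part of the gene being present, so these values do not check the deletion. Leukocytes (Ptprc of at least 2 UMIs and no Cdh5), which should lack these genes, held at most 1.70 CPM of any member other than Plxnd1 and at most 8.12 CPM of Plxnd1.

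On GRCm38, Ntn4 lies on chromosome 10 from 93640681 to 93747207 on the plus strand, and Robo4 on chromosome 9 from 37401897 to 37415115 on the plus strand. Their promoters are shown because Ntn4 was high, and Robo4 nearly absent, in the same Prox1-positive venous-like cells. The sequences come from the RefSeq promoter table of GRCm38.p6, with 300 bases around each start of that table, of which 7 member windows were used. The Ntn4 and Sema3a windows lie inside the gene spans used for the positions, past the gene start, and the Sema3d window ends before its gene start. Their letters are thus not those at these gene starts. In the sequences below, written 5′ to 3′ on the strand of the gene, capitals mark CG dinucleotides.
Ntn4, chr10:93640799-93641098, plus strand: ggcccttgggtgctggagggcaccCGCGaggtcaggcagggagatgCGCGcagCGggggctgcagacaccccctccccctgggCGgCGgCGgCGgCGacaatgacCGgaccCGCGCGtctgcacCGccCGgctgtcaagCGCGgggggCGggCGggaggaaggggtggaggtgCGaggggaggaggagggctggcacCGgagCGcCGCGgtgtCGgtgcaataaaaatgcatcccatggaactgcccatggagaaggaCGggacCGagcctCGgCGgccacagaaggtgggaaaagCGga
Robo4, chr9:37401722-37402021, plus strand: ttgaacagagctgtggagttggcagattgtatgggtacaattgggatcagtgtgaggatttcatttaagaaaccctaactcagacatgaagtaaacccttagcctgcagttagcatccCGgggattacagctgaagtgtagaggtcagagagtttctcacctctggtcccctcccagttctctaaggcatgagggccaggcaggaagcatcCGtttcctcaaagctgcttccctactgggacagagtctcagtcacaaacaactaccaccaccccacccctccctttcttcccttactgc
The Ntn4 window held 31 CG dinucleotides and 72.0% G and C, and the Robo4 window 2 and 50.3%. Over all 32851 promoters of the table the median was 7 CG dinucleotides, and 90.5% of promoters had no more than Ntn4 and 23.3% no more than Robo4. The E-box letters CACGTG were in 0 of the 7 member windows and in 7.15% of all promoters, searched on both strands, and CATGTG in 0 of 7 and 14.2%. The looser CANNTG, which includes both, was in 4 of 7 windows (Robo4, Sema3a, Sema3d and Sema3g) and in 72.3% of all promoters. The Ntn4, Unc5b and Plxnd1 windows held none of these letters.

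Neo1, which encodes the receptor neogenin, was a gene of collecting lymphatics in the control library and of collecting lymphatics and Prox1-positive venous-like cells in the Flcn iΔEC library. In control cells it stood at 323 CPM (272 to 380, 143 counts) in LEC collecting-like cells, 42.1 CPM in LEC capillary-like and 30.7 CPM in Cxcl12-high cells. The 6 other types held 0 to 16.6 CPM, VEC-like cells among them with 7.86 CPM (4.06 to 13.7, 12 counts). Below the collecting type, no neighbours in this order differed beyond counting error. In the Flcn iΔEC library Neo1 stood at 502 CPM (465 to 541, 691 counts) in Prox1-positive venous-like and 495 CPM (471 to 521, 1524 counts) in LEC collecting-like cells, which did not differ beyond counting error. LEC capillary-like cells followed with 159 CPM (147 to 171), VEC-like cells with 86.7 CPM (76.8 to 97.7) and LEC sinus-like cells with 51.0 CPM (40.1 to 63.9). Large artery-like cells were the lowest with 4.02 CPM (2.01 to 7.20).

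Ntn4, the basement membrane netrin, was shared by arteries, veins and collecting lymphatics. In control cells its level was 58.8 CPM (45.6 to 74.7) in large artery-like, 56.5 CPM (36.5 to 83.4) in LEC collecting-like and 34.1 CPM (25.4 to 44.7) in VEC-like cells. Neighbours in this order did not differ beyond counting error, but the intervals of large artery-like and VEC-like cells did not overlap. The other control types held 0.317 to 13.6 CPM, lowest in HEV-like cells with 1 count. In the Flcn iΔEC library Prox1-positive venous-like cells were highest, with 166 CPM (145 to 188, 228 counts), above large artery-like cells with 82.3 CPM (71.9 to 93.7) by a ratio of 2.01 (1.67 to 2.43). LEC collecting-like cells held 73.5 CPM and VEC-like cells 57.2 CPM, and capillary-like cells held 0 counts, an upper bound of 17.3 CPM.

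**Figure D1:**
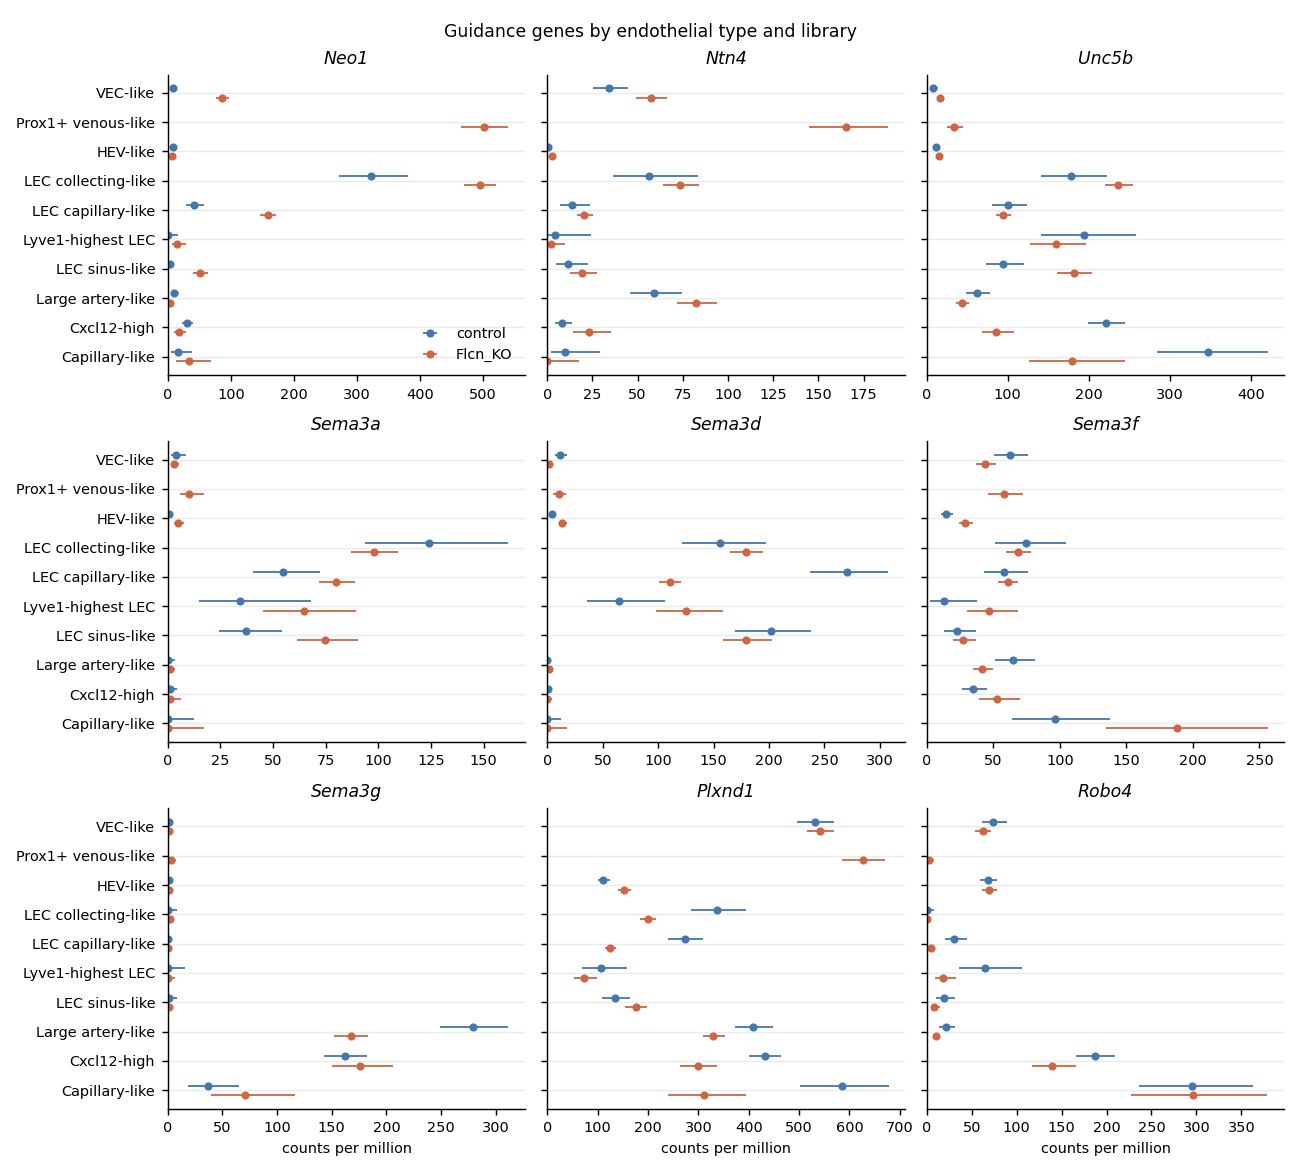
Level of each of the 9 genes in 10 endothelial types, in CPM (linear axis, bars are exact 95% Poisson intervals and cover counting error only), with 1 point per library. Neo1 was highest in Prox1-positive venous-like (502 CPM) and LEC collecting-like cells (495 CPM) of the Flcn_KO library, Ntn4 in Prox1-positive venous-like cells (166 CPM), and Robo4 had 0 counts in LEC collecting-like cells of both libraries.

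The joint presence of Neo1 and Ntn4 was a matter of most Prox1-positive venous-like cells. At least 1 UMI of both genes was found in 37 of the 45 cells (82.2%), Neo1 alone in 4, Ntn4 alone in 3 and neither in 1. The same pair was found in 87 of 120 LEC collecting-like cells (72.5%), 31 of 122 VEC-like cells (25.4%) and 42 of 156 LEC capillary-like cells (26.9%) of the Flcn iΔEC library. In control cells it was found in 7 of 21 LEC collecting-like cells (33.3%) and 6 of 72 VEC-like cells (8.33%). These shares were not matched for depth, and the median of 24691 UMIs in Prox1-positive venous-like cells stood against 19666 in VEC-like and 22797 in LEC collecting-like cells of that library and 15731 in control VEC-like cells.

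After thinning each cell to 5000 UMIs, Neo1 was detected in 30 of 44 Prox1-positive venous-like cells (68.2%, 52.4 to 81.4), against 91.1% without thinning. It was detected in 98 of 120 LEC collecting-like cells (81.7%, 73.6 to 88.1) and 19 of 118 VEC-like cells (16.1%, 9.98 to 24.0) of the same library, where the unthinned shares were 95.0% and 30.3%. In control VEC-like cells Neo1 was left in 2 of 69 cells (2.90%, 0.353 to 10.1, unthinned 12.5%). Ntn4 was detected after thinning in 24 of 44 Prox1-positive venous-like cells (54.5%, 38.8 to 69.6), 21 of 118 VEC-like cells (17.8%, 11.4 to 25.9) and 6 of 69 control VEC-like cells (8.70%, 3.26 to 18.0). Without thinning these shares were 88.9%, 54.1% and 34.7%. Thinned leukocytes held Neo1 in 0.703% of cells in the Flcn iΔEC library and 0.139% in the control, and Ntn4 in 0.0439% and 0.209%, so the shares above lie over this background. The cell with most Neo1 gave 8.39% of the Neo1 counts of Prox1-positive venous-like cells.

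**Figure D2:**
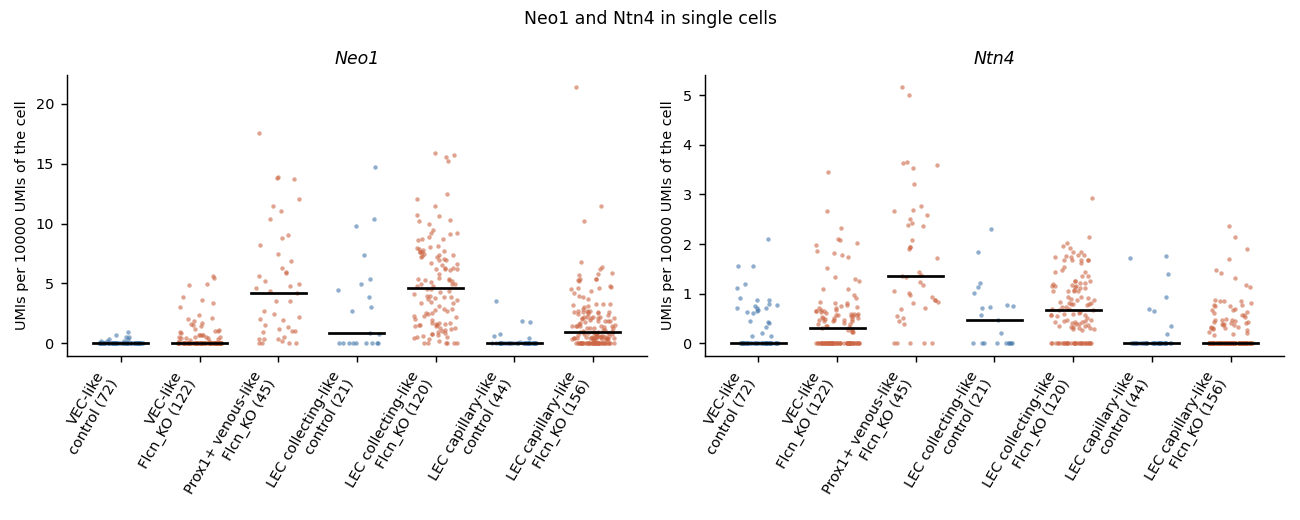
Neo1 and Ntn4 UMIs per 10000 UMIs of each cell (linear axis) in 4 types, with 1 point per cell and a black line at the median of each group (cell numbers in parentheses). The median of Neo1 was 4.23 in Prox1-positive venous-like and 4.66 in LEC collecting-like cells of the Flcn_KO library, and 0 in VEC-like cells of both libraries.

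Within the Flcn iΔEC library, Prox1-positive venous-like cells differed from VEC-like cells in both directions. Neo1 was 5.78-fold higher (502 against 86.7 CPM, ratio interval 5.02 to 6.68) and Ntn4 2.89-fold higher (166 against 57.2 CPM, 2.37 to 3.54). Without the cell that carried the hemoglobin counts these ratios were 5.83 and 2.93. The ratios depended on which venous cells they were set against. Without the VEC-like cells of over 6 Prox1 UMIs they were 18.9 and 3.68, and against control VEC-like cells 63.8 and 4.86. Unc5b, a dependence receptor for netrins, was 2.02-fold higher but low in both (33.4 and 16.5 CPM, 1.33 to 3.06). Robo4 was 21.4-fold lower (8.24 to 79.5), with 2.90 CPM (4 counts) against 62.3 CPM (196 counts). Its log2 ratio of -4.42 was -1.89 at resolution 1.6 and -1.44 with marker limits in single cells, and that of Unc5b went from 1.02 to 0.39 with such limits.

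Plxnd1 and Sema3f moved little between these types. Plxnd1 stood at 627 and 542 CPM (ratio 1.16, 1.07 to 1.26) and Sema3f at 58.1 and 43.8 CPM (1.32, 0.993 to 1.76). Sema3a (14 against 9 counts), Sema3d (14 against 4) and Sema3g (4 against 2) fell under the minimum of 50 summed counts. Among the 6 members that reached it, 3 were past 2-fold higher and 1 lower. Of all 7961 genes at this minimum, 3.33% were past 2-fold higher and 5.74% lower. The members were picked from this contrast, so nothing is read from the difference between those shares.

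**Figure D3:**
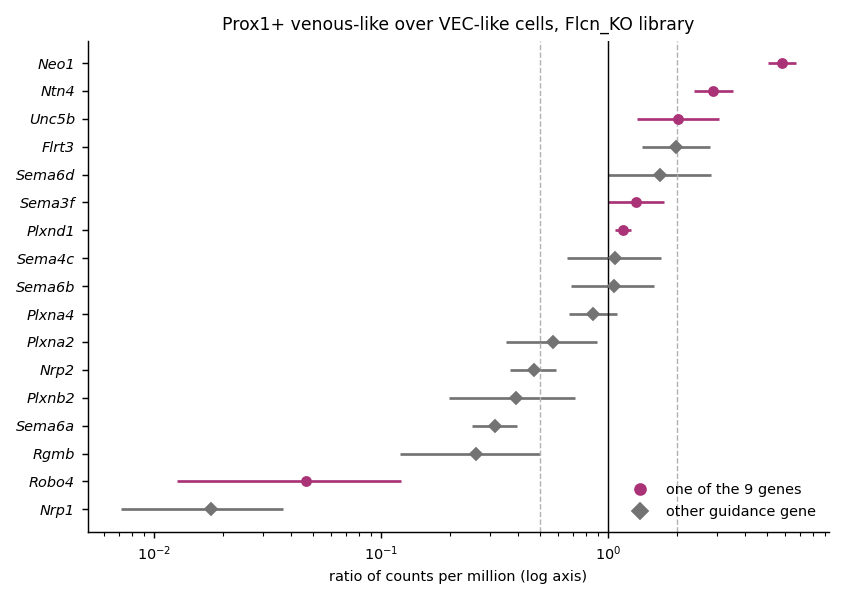
Ratio of CPM of Prox1-positive venous-like over VEC-like cells of the Flcn_KO library (log axis, bars are exact conditional 95% intervals) for the 17 guidance genes with at least 50 summed counts, circles for the 9 described genes and diamonds for the others, dashed lines at 2-fold. Neo1 (5.78) and Ntn4 (2.89) had the highest ratios, and Nrp1 (7 against 898 counts) and Robo4 (4 against 196 counts) the lowest.

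Of the wider guidance list of 55 measured genes, 17 reached the minimum, with the same 3 past 2-fold higher and 6 lower, and a median log2 ratio of 0.10 against 0.01 over all 7961 genes. The 6 lower genes were Robo4, the neuropilins Nrp1 and Nrp2, the semaphorin Sema6a, the plexin Plxnb2 and Rgmb. Nrp1, a coreceptor for class 3 semaphorins and for VEGF, had 7 counts (5.08 CPM) against 898 counts (285 CPM) in VEC-like cells, a 56.1-fold lower level. Nrp2, the neuropilin of veins and lymphatics, stood at 64.6 against 138 CPM and Sema6a at 66.8 against 211 CPM. Rgmb, a repulsive guidance molecule and ligand of neogenin, stood at 7.26 against 28.0 CPM, and Plxnb2 at 9.44 against 24.1 CPM. So Neo1 and Rgmb went opposite ways between these types, and Plxnd1 kept its level while Nrp1 was nearly absent.

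Against LEC collecting-like cells of the same library, Prox1-positive venous-like cells had a Neo1 ratio of 1.01 (0.924 to 1.11) and differed in most other members. The Neo1 log2 ratio of 0.02 was 0.75 at resolution 0.4 and -0.38 at resolution 1.6, both beyond counting error, so the like levels hold for this clustering. That of Ntn4 was 1.17 and became 1.93 at resolution 0.4, and that of Unc5b went from -2.82 to -2.16. At resolution 0.4 no LEC capillary-like type was formed, so the LEC collecting-like cells there need not be the same cells. The Prox1-positive venous-like type held 46 cells there, 45 of them shared with those described, and 73 Flcn iΔEC cells at resolution 1.6. Ntn4 was 2.25-fold (1.87 to 2.72) and Plxnd1 3.14-fold higher (627 against 200 CPM, 2.83 to 3.49). Unc5b was 7.08-fold lower (33.4 against 236 CPM), Sema3a 9.63-fold lower (10.2 against 97.8 CPM) and Sema3d 17.7-fold lower (10.2 against 179 CPM). In this contrast 2 of 7 members were past 2-fold higher and 3 lower, where the background over 7794 genes was 3.99% and 4.98%. Over the list, 17 genes reached the minimum, with 5 higher (Ntn4, Plxnd1, Flrt3, Sema6b and Plxna4) and 6 lower (Unc5b, Sema3a, Sema3d, Ntn1, Sema4c and Slit3). Ntn1, the classical netrin, stood at 10.2 CPM against 87.4 CPM, and Slit3, a ligand of Robo receptors, at 2.18 against 34.1 CPM. Plxna4, a plexin for class 3 semaphorins, stood at 67.5 against 13.3 CPM, and Flrt3, a ligand of Unc5 receptors, at 47.9 against 13.3 CPM. Sema4c stood at 20.3 against 61.1 CPM and Sema6b at 25.4 against 7.80 CPM.

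Against LEC capillary-like cells of that library, Ntn4 was 8.06-fold (6.28 to 10.4), Plxnd1 5.01-fold (4.49 to 5.59) and Neo1 3.16-fold higher (2.84 to 3.52). Unc5b was 2.83-fold, Sema3a 7.85-fold and Sema3d 10.9-fold lower. That is 3 of 7 members past 2-fold higher and 3 lower, with 5.01% and 5.07% of 8305 genes as the background. Robo4 had 4 against 20 counts in this contrast, and its log2 ratio of -0.68 was 2.03 at resolution 1.6 and 2.56 with marker limits in single cells. Of 21 list genes, 5 were higher and 8 lower, and beside the members these were Flrt3 (47.9 against 6.77 CPM) and Plxna4 (67.5 against 31.7 CPM) above and Ntn1 (10.2 against 102 CPM), Nrp2 (64.6 against 285 CPM), Sema4d (7.99 against 19.1 CPM), Slit2 (2.90 against 11.4 CPM) and Slit3 (2.18 against 20.5 CPM) below. The Prox1-positive venous-like cells thus carried high Neo1 and Ntn4 with Plxnd1 at the level of venous cells, and neither the Robo4 of venous cells nor the Sema3a and Sema3d of lymphatic cells.

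Neo1 also followed Prox1 inside the VEC-like type of the Flcn iΔEC library, a comparison chosen after the values had been seen. In the 53 Flcn iΔEC VEC-like cells with no Prox1 UMI, Neo1 stood at 7.37 CPM (2.71 to 16.05, 6 counts). In the 50 cells with 1 to 6 Prox1 UMIs it stood at 37.2 CPM (28.0 to 48.4, 55 counts), and in the 19 cells with over 6 at 248 CPM (216 to 284, 212 counts). Neo1 was thus higher with each step of Prox1, and its highest group held 212 of the 273 counts of the type. Depth rose with these bins too, with a median of 14755, 24176 and 40875 UMIs per cell, and its part in the pattern was not tested. Prox1-positive venous-like cells did not show such steps. Their Neo1 stood at 415 CPM (346 to 494) in the 13 cells with 1 to 6 Prox1 UMIs and 524 CPM (481 to 570) in the 30 with over 6. The 2 cells of that type with no Prox1 UMI held 608 CPM (340 to 1003, 15 counts).

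In the control library the 37 VEC-like cells with 1 to 6 Prox1 UMIs had a Prox1 level of 72.0 CPM, close to the 69.6 CPM of the Flcn iΔEC cells of that bin. Their Neo1 stood at 8.76 CPM (4.00 to 16.6), so the Flcn iΔEC cells were 4.25-fold higher (2.08 to 9.78) at a like level of Prox1. In the cells with no Prox1 UMI the libraries stood at 6.01 and 7.37 CPM, a ratio of 1.23 (0.262 to 7.58). Even the 19 VEC-like cells with most Prox1 stayed below the Prox1-positive venous-like cells, which were 2.02-fold higher (1.73 to 2.37) in Neo1 and 1.84-fold higher (1.41 to 2.41) in Ntn4.

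Ntn4 showed another course. In Flcn iΔEC VEC-like cells it was at 50.4 CPM (36.2 to 68.4) with no Prox1 UMI, 41.9 CPM (32.1 to 53.7) with 1 to 6 and 90.1 CPM (71.1 to 113) with over 6. In the bin of 1 to 6 UMIs the libraries had a ratio of 1.002 (0.668 to 1.51), and in the bin without Prox1 the Flcn iΔEC cells were 2.79-fold higher (1.34 to 6.54). Robo4 of Flcn iΔEC VEC-like cells went from 87.3 CPM (68.1 to 110) to 57.5 CPM (45.9 to 71.1) and 46.8 CPM (33.4 to 63.7) over the bins. In control VEC-like cells it was 72.2 CPM (50.5 to 99.9) with no and 74.9 CPM (59.1 to 93.6) with 1 to 6 Prox1 UMIs, with no such fall. The 40 Robo4 counts (46.8 CPM) in the VEC-like cells with most Prox1 stood against 4 in the Prox1-positive venous-like cells, a ratio of 0.0621 (0.0161 to 0.172) in CPM.

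**Figure D4:**
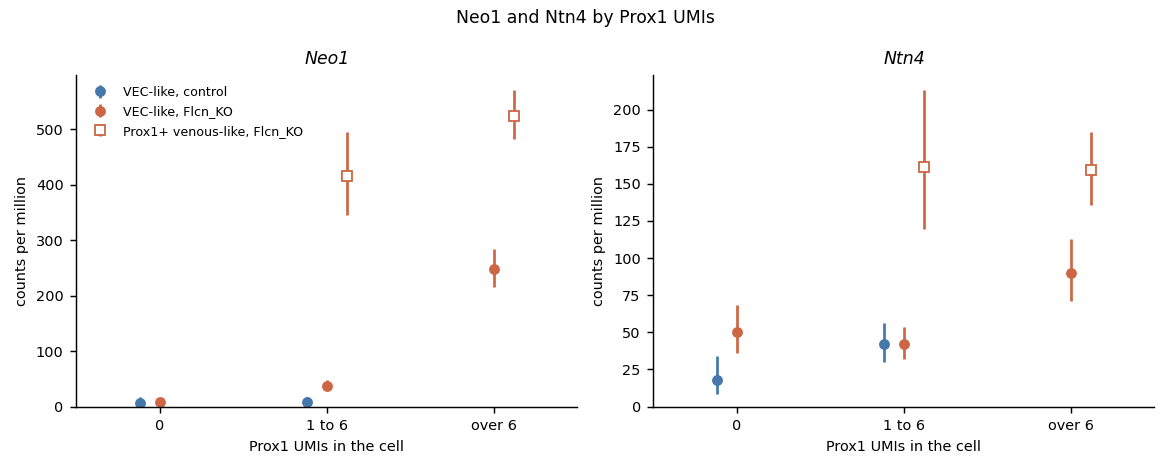
Neo1 and Ntn4 in CPM (linear axis, exact 95% Poisson intervals) by the number of Prox1 UMIs in the cell, for VEC-like cells of both libraries (filled circles) and Prox1-positive venous-like cells (open squares), for groups of at least 10 cells. Neo1 of Flcn_KO VEC-like cells stood at 7.37, 37.2 and 248 CPM over the 3 bins, while control VEC-like cells stayed at 6.01 and 8.76 CPM.

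Between the libraries, Neo1 was higher in Flcn iΔEC cells of the VEC-like type and of 3 of the 4 lymphatic types. The fourth, the Lyve1-highest LECs, held 8 against 0 counts, which did not leave counting error. In VEC-like cells the ratio was 11.0 (6.22 to 21.6, 273 against 12 counts), a log2 ratio of 3.46 that was 1.602 at resolution 1.6 and 2.35 with marker limits in single cells. Of the 273 counts, 212 came from the 19 cells with over 6 Prox1 UMIs, a bin that held no control VEC-like cell. With no Prox1 UMI the ratio was 1.23 (0.262 to 7.58), and with 1 to 6 it was 4.25 (2.08 to 9.78). In LEC capillary-like cells it was 3.77 (2.71 to 5.40, 680 against 37 counts, of which 1 control cell held 18), a log2 ratio of 1.92 against 1.004 without integration. In LEC sinus-like cells it was 17.8 (4.77 to 150, 75 against 2 counts), where 1 cell held 25 of the 75 counts. With marker limits in single cells the log2 ratio in this type fell from 4.16 to 0.94. LEC collecting-like cells had a ratio of 1.53 (1.29 to 1.83). Large artery-like cells were lower, with a ratio of 0.382 (0.153 to 0.945, 11 against 12 counts). In Cxcl12-high cells the ratio of 0.573 (0.304 to 1.02) and in HEV-like cells that of 0.842 (0.464 to 1.53) did not leave counting error. The HEV-like log2 ratio of -0.25 turned to 1.08 without integration and 1.01 at resolution 0.4, both beyond counting error. Ntn4 was higher in VEC-like (1.68, 1.23 to 2.33), large artery-like (1.40, 1.06 to 1.87) and Cxcl12-high cells (2.89, 1.38 to 6.28), and in LEC collecting-like cells it had a ratio of 1.30 (0.859 to 2.05). HEV-like cells held 10 Ntn4 counts against 1 in the control. The Cxcl12-high log2 ratio of Ntn4 was 1.53, and 2.14 at resolution 1.6.

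Unc5b, a receptor known from endothelial tip cells and arteries, was lower in Flcn iΔEC cells of 3 blood vessel types and higher in VEC-like and 2 lymphatic types. In the control library it was highest in capillary-like cells (348 CPM, 284 to 421), followed by Cxcl12-high cells (221 CPM). VEC-like cells were lowest (7.86 CPM), within counting error of HEV-like cells. In the Flcn iΔEC library LEC collecting-like cells were highest (236 CPM, 219 to 254). The ratio of the libraries was 0.389 (0.300 to 0.498) in Cxcl12-high, 0.514 (0.345 to 0.752) in capillary-like and 0.702 (0.518 to 0.958) in large artery-like cells. It was 1.92 (1.46 to 2.56) in LEC sinus-like, 1.32 (1.05 to 1.69) in LEC collecting-like (a log2 ratio of 0.41, or -0.27 without integration) and 2.10 (1.11 to 4.33, 52 against 12 counts) in VEC-like cells. With marker limits in single cells the log2 ratio of -1.36 in Cxcl12-high cells was -0.71 and that of 1.07 in VEC-like cells was 2.10.

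Sema3a and Sema3d marked the lymphatic types. Sema3a, a ligand needed for lymphatic valves, held 34.4 to 124 CPM in the 4 lymphatic types of the control library and 64.5 to 97.8 CPM in those of the Flcn iΔEC library. Outside them it was at or below 10.2 CPM in both libraries. Sema3d, which also signals through neuropilins, held 64.5 to 271 CPM in control and 110 to 179 CPM in Flcn iΔEC lymphatic types, and at most 13.5 CPM elsewhere. In LEC capillary-like cells Sema3d was 2.45-fold lower in the Flcn iΔEC library (110 against 271 CPM, 2.09 to 2.87) and Sema3a was higher (ratio 1.46, 1.08 to 2.02, a log2 ratio of 0.55 that was 1.43 with marker limits in single cells). In LEC sinus-like cells Sema3a had a ratio of 2.01 (1.30 to 3.22, with marker limits in single cells a log2 ratio of -0.012 in place of 1.01) and Sema3d of 0.890 (0.723 to 1.10). In VEC-like cells Sema3d had 4 counts in the Flcn iΔEC and 17 in the control library, 9 of them in 1 cell, a ratio of 0.114 (0.0279 to 0.350). This log2 ratio of -3.13 was -0.88 with a gate of 1 Cdh5 UMI, -1.01 without integration and -0.75 with marker limits in single cells, none of them beyond counting error. HEV-like cells held 13.5 against 4.12 CPM (ratio 3.29, 1.77 to 6.56), but this log2 ratio of 1.72 was -0.66 without integration and 0.44 with marker limits in single cells.

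Sema3g, a semaphorin known from arteries, was concentrated in the large artery-like and Cxcl12-high types. Large artery-like cells of the control held 279 CPM (249 to 312) and those of the Flcn iΔEC library 167 CPM (152 to 184), a ratio of 0.5999 (0.519 to 0.694). Cxcl12-high cells held 162 and 176 CPM (ratio 1.09, 0.889 to 1.33), and capillary-like cells 36.4 and 70.5 CPM (1.94, 0.831 to 4.66). All other types held at most 2.90 CPM in either library. Sema3f, a ligand of Nrp2, was spread over all types, from 12.9 to 96.0 CPM in control and from 27.2 to 188 CPM in Flcn iΔEC cells. Capillary-like cells were highest in both, in control within counting error of LEC collecting-like cells. The Sema3f ratio between the libraries was 0.705 (0.539 to 0.925) in VEC-like and 0.642 (0.475 to 0.872) in large artery-like cells, and 1.99 (1.41 to 2.87) in HEV-like and 1.96 (1.18 to 3.28) in capillary-like cells. Sema3f was also higher beyond counting error in the Lyve1-highest LECs (46.6 against 12.9 CPM, 26 against 3 counts) and in Cxcl12-high cells (52.8 against 35.1 CPM). In the Lyve1-highest LECs the log2 ratio of 1.85 was 0.75 with marker limits in single cells, within counting error. The HEV-like log2 ratio of 0.995 fell within counting error at resolution 0.4 (0.31) and without integration (0.28), and was 0.41 with marker limits in single cells.

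Plxnd1 was found in every type, from 107 to 586 CPM in control and from 73.4 to 627 CPM in Flcn iΔEC cells. The Lyve1-highest LECs were lowest in both libraries, while the highest were capillary-like cells of the control and Prox1-positive venous-like cells of the other library. In control neither end differed beyond counting error from the next type, HEV-like cells (111 CPM) at the low and VEC-like cells at the high end. In VEC-like cells Plxnd1 stood at 532 and 542 CPM (ratio 1.02, 0.937 to 1.11). It was lower in Flcn iΔEC cells in LEC capillary-like (0.459, 0.394 to 0.537), capillary-like (0.530, 0.393 to 0.706), LEC collecting-like (0.594, 0.496 to 0.715), Cxcl12-high (0.691, 0.598 to 0.796) and large artery-like cells (0.806, 0.720 to 0.903). It was higher in HEV-like (1.37, 1.20 to 1.57) and LEC sinus-like cells (1.31, 1.03 to 1.68), where the log2 ratio of 0.39 was -0.31 with marker limits in single cells. HEV-like and LEC sinus-like cells also carried the most leukocyte transcripts, with a sum of 9 leukocyte markers of 1998 and 1470 CPM in control and 1177 and 571 CPM in Flcn iΔEC cells, and the part of this in the 2 ratios was not tested.

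Robo4 was a gene of several blood vessel types but was not confined to them. It was highest in capillary-like cells of both libraries (295 and 296 CPM, ratio 1.01, 0.716 to 1.40), followed by Cxcl12-high cells with 187 and 140 CPM (0.748, 0.603 to 0.923, a log2 ratio of -0.42 that was -1.03 with 20 dimensions). VEC-like cells held 74.0 and 62.3 CPM (0.841, 0.664 to 1.07) and HEV-like cells 67.9 and 69.5 CPM. LEC collecting-like cells had 0 counts in both libraries, with upper bounds of 8.33 and 1.20 CPM. The Lyve1-highest LECs held 64.5 CPM (15 counts) in control, within counting error of HEV-like cells, and 17.9 CPM (10 counts) in the Flcn iΔEC library. Large artery-like cells lay below them in both libraries, in the Flcn iΔEC library within counting error. In LEC capillary-like cells Robo4 was 6.58-fold lower in the Flcn iΔEC library (4.67 against 30.7 CPM, 3.56 to 12.4, 20 against 27 counts) and in large artery-like cells 2.13-fold lower (9.87 against 21.1 CPM, 1.18 to 3.84).

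**Figure D5:**
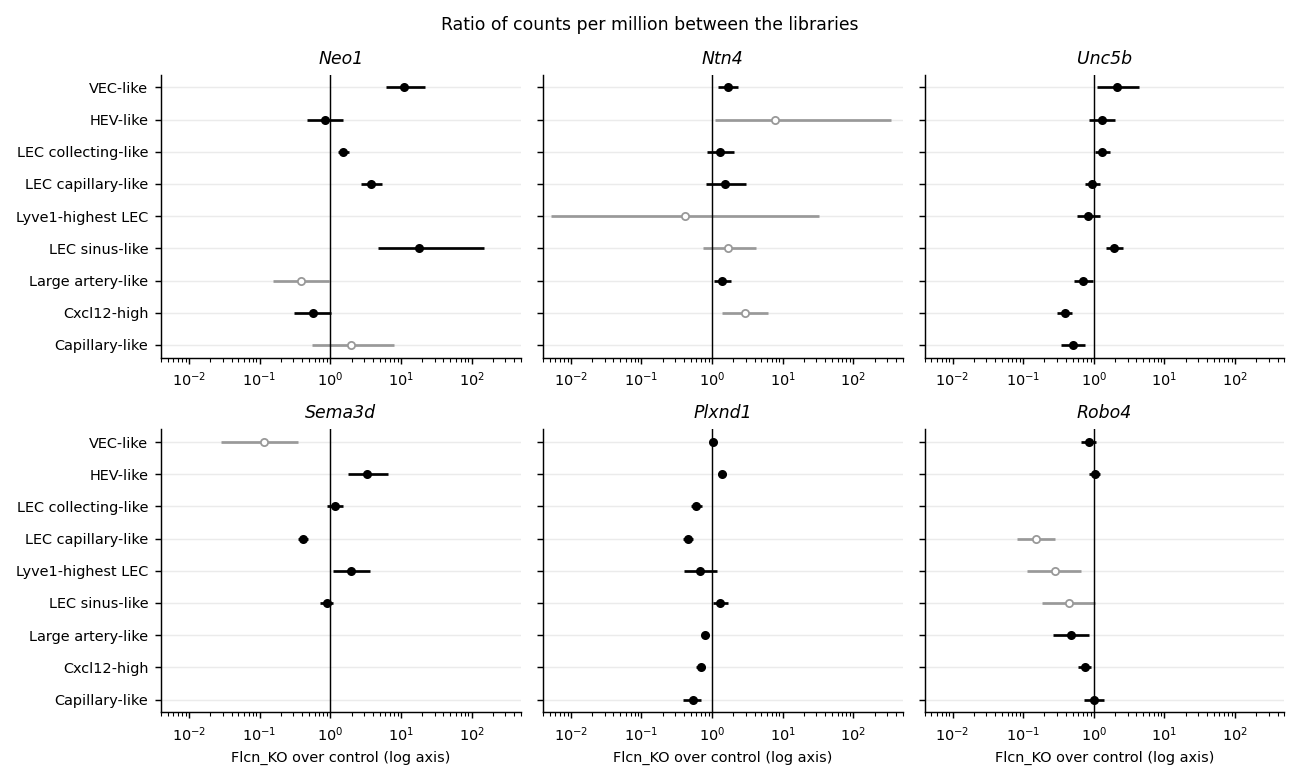
Ratio of CPM, Flcn_KO over control library, in 9 endothelial types for 6 of the genes (log axis, exact conditional 95% intervals for counting error), filled where the 2 libraries together held at least 50 counts and open below that. Types with 0 counts in a library are left out. Neo1 lay at 11.0 in VEC-like, 3.77 in LEC capillary-like and 0.382 in large artery-like cells.

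Past 2-fold with at least 50 counts, the members called between the libraries were few. In VEC-like cells Neo1 was higher and no member lower, of 6 members at the minimum, where 3.29% of genes were higher and 4.44% lower. In LEC capillary-like cells Neo1 was higher and Sema3d and Plxnd1 lower, of 7, with a background of 4.26% and 7.01%. Neo1 was higher in LEC sinus-like cells (background 3.09%) and Sema3d in HEV-like cells (2.45%), whereas Robo4 was lower in large artery-like (background 2.61% higher and 2.62% lower) and Unc5b in Cxcl12-high cells (3.59%). The LEC collecting-like, Lyve1-highest and capillary-like types had 0 members past 2-fold, against 5.25%, 4.41% and 4.55% of genes higher and 7.58%, 4.45% and 2.74% lower.

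Over the 55 list genes, calls between the libraries summed over the 9 types were 5 higher (3.47% of 144 pairs of gene and type) and 29 lower (20.1%). All genes summed in the same way had 3.41% higher and 4.34% lower of 57016 pairs. A gene counts once in each type, so the lower calls hold some genes several times, such as Flrt2 in 5 types and Plxna4 in 4. The higher calls were the 4 of Neo1 and Sema3d and that of Slit3 in LEC capillary-like cells (88 against 3 counts, 20.5 against 3.41 CPM). Flrt2, a ligand of Unc5 receptors, was lower in 5 types, for example in LEC capillary-like cells with 8.17 against 118 CPM and in VEC-like cells with 7.63 against 54.4 CPM. Plxna4 was lower in the 4 lymphatic types, with 31.7 against 139 CPM in LEC capillary-like and 13.3 against 72.3 CPM in LEC collecting-like cells. In VEC-like cells Unc5c (4.45 against 38.0 CPM), Sema6d (12.1 against 37.3 CPM), Slit3 (7.94 against 24.2 CPM) and Nrp2 (138 against 300 CPM) were lower too. Sema6a was lower in LEC collecting-like (92.3 against 199 CPM), LEC sinus-like (42.1 against 85.7 CPM) and Cxcl12-high cells (101 against 208 CPM). Slit2 in large artery-like cells stood at 8.41 against 39.5 CPM. The median log2 ratio of the tested list genes was -0.52 in LEC capillary-like cells, where that of all genes was -0.20, and -0.21 against -0.08 in VEC-like cells.

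Genes of lymphatic valves differed between the libraries in the LEC capillary-like and LEC collecting-like types too. In LEC capillary-like cells the control and Flcn iΔEC levels were 182 and 51.1 CPM for Foxc2 and 398 and 24.97 CPM for Gja4. In LEC collecting-like cells Foxc2 stood at 239 and 68.6 CPM, Gja4 at 942 and 68.9 CPM and Cldn11 at 1163 and 632 CPM, and the sum of 5 collecting and valve markers at 2726 and 1024 CPM. Other markers differed as well. The sum of 4 lymphatic capillary markers was 2781 and 6473 CPM in LEC capillary-like cells, and 4771 and 4109 CPM in LEC collecting-like cells. In control the LEC capillary-like cells thus held fewer of these markers than the LEC collecting-like cells. The sum of 7 lymph node sinus markers was 412 and 24.3 CPM in LEC capillary-like and 280 and 11.1 CPM in LEC collecting-like cells. The part of all these markers in the ratios of Neo1, Plxnd1 and Sema3d was not tested. Neo1 was also high outside the named types, in cycling cells with 238 CPM in the Flcn iΔEC and 17.1 CPM in the control library, where the sum of 10 LEC markers was 5269 and 1378 CPM.

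Over 16 groups (type by library, at least 20 cells each), the level of Sema3a followed that of Sema3d most closely among the members, with r = 0.967 on log2(CPM + 10). Among genes with a mean of at least 50 CPM, those most like Sema3a were Tbx1 (r = 0.973), Sema3d and Pard6g (0.966). Those most like Sema3d were Tbx1 (0.952), Thy1 (0.943) and the lymphatic gene Pdpn (0.942), with Sema3a left out at a mean of 32.6 CPM. Sema3g was most like Azin1 (0.937), Pls3 (0.907) and Serpinf1 (0.900), and Robo4 most like Adgrl2 (0.939), Gimap4 (0.935) and Mef2c (0.930). For Neo1 the likest genes were H3f3a (0.911), Commd6 (0.908) and Hmgb3 (0.907), and for Ntn4 they were Atp6v0e (0.879), BC031181 (0.876) and Rcn2 (0.875). Plxnd1 was most like Myl12b (0.948), Pdcl3 (0.914) and Pja2 (0.905), Sema3f most like Chmp5 (0.851), Rnf215 (0.839) and Tie1 (0.838), and Unc5b most like Lamc1 (0.814), Lama4 (0.808) and Pdcd10 (0.782). Neo1 and Ntn4 had r = 0.568 with each other, and Sema3a and Robo4 r = -0.718. These correlations rank the 3392 genes with a mean of at least 50 CPM, over groups that share 2 libraries, and are a description.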

How the data were processed

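The deposited values are raw UMI counts per gene and cell, without normalization, which the authors obtained with Cell Ranger 3.0 from 10x 3′ v3 libraries. The submitters' processing notes name mm10. The members and lists were chosen with earlier results of these data known. Cells with at least 2 Cdh5 UMIs were integrated by anchors and clustered in Seurat 5.3.0 (R 4.3.3) with 2000 features less the guidance list, 30 dimensions and a resolution of 0.8. Types were named from marker lists, with limits set after the clusters had been seen. No cell was removed, and Scrublet in scanpy 1.11.5 called 7 control and 3 Flcn iΔEC gated cells doublets. The libraries shared 6 barcodes, 0 of them gated.

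Counts were summed per type and library in Python 3.11.15 (numpy 2.4.6, scipy 1.17.1, pandas 2.3.3) and scaled to CPM, so a gene's level is relative to all RNA counted in the type. Levels carry exact Poisson, ratios exact conditional and shares exact Clopper-Pearson 95% intervals. Calls needed at least 50 summed counts and a 2-fold ratio with 1 count added, and a count of 0 was given the limit of 3 counts. The text names all members, the list genes past 2-fold and, per member, the 3 genes of highest Pearson r with a mean of at least 50 CPM. Of 56 listed genes 55 were measured, with Hjv found under its older symbol. The call rule was tested on simulated data. Alternatives were other gates, clusterings, cell filters, marker gates in single cells, scalings, count minimums and thinning depths. Positions are from GENCODE M21 and promoters from RefSeq. A further promoter sequence is not reported here.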

Additional observations from a re-analysis of the deposited data

Results flagged for a closer look

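For 5 of the 9 genes the Flcn iΔEC over control ratio lay above 1 in 1 type and below 1 in another, with intervals that did not include 1. None of these differences between types was tested. Neo1 had a ratio of 1.53 (1.29 to 1.83) in LEC collecting-like and 0.382 (0.153 to 0.945) in large artery-like cells. Unc5b had a ratio of 1.32 (1.05 to 1.69) in LEC collecting-like and 0.389 (0.300 to 0.498) in Cxcl12-high cells. The Sema3d ratio was 1.94 (1.10 to 3.66) in the Lyve1-highest LECs and 0.408 (0.348 to 0.479) in LEC capillary-like cells. That of Sema3f was 1.99 (1.41 to 2.87) in HEV-like and 0.705 (0.539 to 0.925) in VEC-like cells. Plxnd1 had a ratio of 1.37 (1.20 to 1.57) in HEV-like and 0.806 (0.720 to 0.903) in large artery-like cells. Among these, the ratios of Unc5b in LEC collecting-like, Sema3d in the Lyve1-highest and Sema3f in HEV-like cells turned or fell within counting error under some alternatives.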

How the results depend on the processing

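No paired analysis was possible because each condition had 1 library, and no library could be left out. In 8 clusterings 43 to 47 cells, 0 of them control cells, formed the Prox1-positive venous-like type, and 43 to 45 of these were shared with those described. At resolution 1.6 it held 8.18% of Flcn iΔEC and 1.24% of control cells, VEC-like cells 10.5% of Flcn iΔEC cells, and the Neo1 ratio to VEC-like cells was 14.8. With marker limits in single cells the control share was 0.883% and the Neo1 ratio 12.9. With comparators chosen after seeing the data, the Neo1 ratio was 63.8 (36.3 to 124) against control VEC-like cells and 18.9 (14.5 to 24.9) without VEC-like cells of over 6 Prox1 UMIs, and the Ntn4 ratio 4.86 and 3.68. The 5 higher list calls between libraries became 9 with a gate of 1 Cdh5 UMI, 8 with 20 dimensions or without integration and 11 with marker limits in single cells. With a minimum of 20 counts they became 12 higher and 46 lower, and with none 30 and 187, while the calls above VEC-like cells became 5 and 24. Of the log2 ratios, 49 values turned sign, 14 of them beyond counting error before or after. Without integration these were Sema3d in HEV-like (-0.66), Unc5b in LEC collecting-like (-0.27) and Neo1 in HEV-like cells (1.08), the last also at resolution 0.4 (1.01), where Sema3d in LEC collecting-like cells turned to -0.74. With marker limits in single cells they were Sema3d in the Lyve1-highest LECs (-0.61), Sema3a (-0.012) and Plxnd1 (-0.31) in LEC sinus-like, Sema3g in HEV-like (-1.52) and Robo4 in capillary-like cells (-0.50). For Prox1-positive venous-like over LEC capillary-like cells they were Sema3g (-0.28) and Robo4 (2.56) with such limits and Robo4 at resolution 1.6 (2.03), and over LEC collecting-like cells Neo1 at resolution 1.6 (-0.38). The cause was not tested. Of 1021 ratio values under the alternatives, 954 stayed within the counting interval of the described ratio, which is wide at low counts. This share depended on the setting. With marker limits in single cells 65 of 92 stayed within it and at resolution 0.4 62 of 73, whereas with called doublets removed all 96 did. Not run for lack of the type were LEC capillary-like cells at resolution 0.4, and capillary-like cells at resolution 0.4, with a gate of 1 Cdh5 UMI and without integration. Shallow types (14 Lyve1-highest and 17 capillary-like cells at the fewest) limit precision.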
